A study of Arabidopsis thaliana with 9 samples.

Results

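SMZ (AT3G54990), SNZ (AT2G39250), ATC (AT2G27550) and AGL18 (AT3G57390) are Arabidopsis thaliana genes for proteins that delay flowering. They were selected as known flowering repressors, by the annotation of the array, and each had 1 probe set annotated to that gene alone, so all 4 of the 4 genes were measured among 13356 named genes and 22746 tested probe sets. The samples were whole seedlings of the accession Landsberg erecta, either wild type or carrying the ebs or the shl-2 mutation. All 3 genotypes were grown on solid MS medium under short-day light (8 h of light, then 16 h of darkness) until day 18, with no further treatment. Each genotype was represented by 3 independent biological pools of plants, 1 array per pool, and each mutation by a single allele. The mutants are described by the submitters as lacking EBS or SHL expression. The SHL probe set still read 51.3% of the wild type signal in shl-2. One label field writes the second allele as shl-2-2, where the genotype field has shl-2.

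EBS and SHL are related chromatin proteins with a bromo-adjacent homology domain and a PHD finger, which read methylated histone H3, and loss of either leads to early flowering. Flowering in Arabidopsis depends on the balance between florigen, the mobile protein FT that acts with the bZIP factor FD at the shoot apex, and repressors that keep FT off or compete with it. SMZ and SNZ are AP2-type transcription factors, targets of the microRNA miR172, that repress FT. ATC is a relative of TFL1 from the same protein family as FT and delays flowering in short days by competing with florigen for FD. AGL18 is a MADS-box factor that acts with its relative AGL15 to repress FT.

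Values below are log2 signals per probe set, and a difference of 1 is a 2-fold change. Median log2 signals of the arrays lay between 6.06 and 6.12, and arrays of 1 genotype correlated with r = 0.992 to 0.997 across probe sets. The SHL signal was 7.46, 6.91 and 6.52 on the shl-2 arrays and 7.81 to 8.08 on the other 6 (shl-2 against wild type, log2 fold change -0.96, limma adjusted p = 0.0182). That call ended without wild type array 2 (adjusted p = 0.0772) or 3 (0.0586) or shl-2 array 2 (0.0608), and when only these 2 groups were fitted (0.0502). EBS was not analysed here. As a check of the tissue, the 3 measured green shoot markers (LHCB4.1, PSAN, RCA) read 13.54 to 14.38 on every array. They lay at the top of the signal scale, above at least 99.8% of probe sets in wild type, where little room is left for a change, so they mark green tissue but do not test its share. The root hair expansin EXPA7, the single root marker measured, had log2 differences of 0.20 in ebs and 0.01 in shl-2 (limma adjusted p = 0.50 and 0.990), and markers of flowers and seeds were not analysed here. In whole seedlings, fewer cells of a type and less RNA per cell cannot be told apart.

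SMZ was lower in ebs than in wild type and was the only one of the 4 repressors to pass the test in any comparison. Wild type arrays 1 to 3 gave SMZ signals of 6.50, 6.64 and 6.52, ebs arrays 6.21, 5.78 and 5.80, and shl-2 arrays 6.21, 6.21 and 5.77. All 6 mutant arrays lay below all 3 wild type arrays, by at least the gap between 6.21 and 6.50, and the ebs and shl-2 arrays overlapped fully. Means were 6.55 ± 0.08 (SD, n = 3) in wild type, 5.93 ± 0.24 in ebs and 6.06 ± 0.25 in shl-2. The SD within each mutant was more than 3 times that of wild type, with ebs array 1 above the other ebs arrays and shl-2 array 3 below the other shl-2 arrays.

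**Figure D1:**
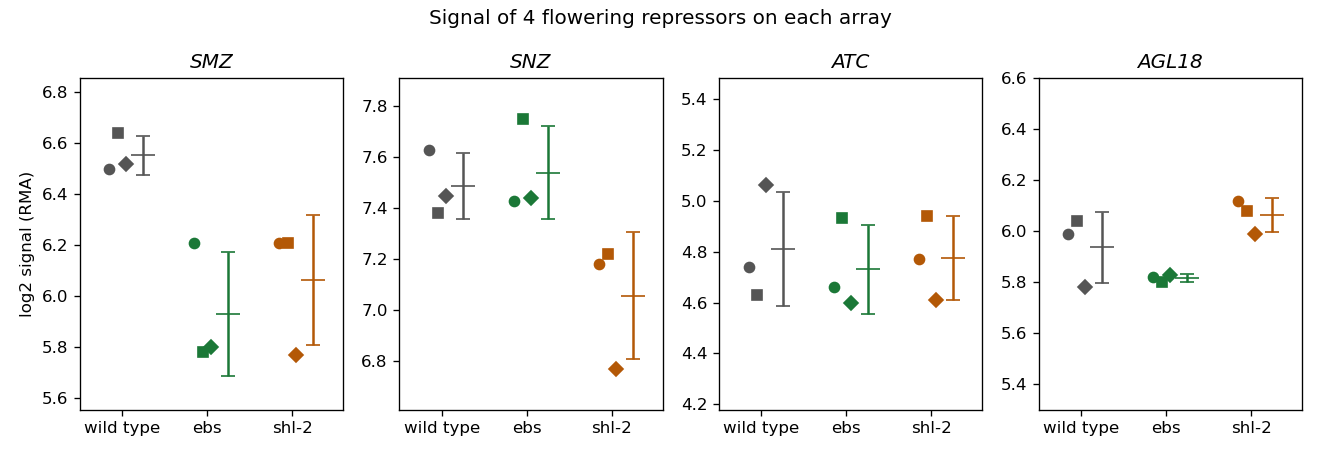
Log2 signal (vertical axis, each panel spanning the same 1.3 log2 units) of SMZ, SNZ, ATC and AGL18 on each array by genotype; circles, squares and diamonds are replicates 1, 2 and 3, and the bars are the mean and SD of 3 arrays. SMZ is lower on all 6 mutant arrays than on the wild type arrays, SNZ is lower on the 3 shl-2 arrays alone, ATC overlaps in all genotypes and AGL18 separates the ebs from the shl-2 arrays. Depending on the 2 genotypes compared, 14% to 20.5% of all probe sets had arrays without overlap.

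The SMZ signal fell by 0.62 on the log2 scale in ebs (SE 0.15, 95% interval -0.95 to -0.30, limma adjusted p = 0.0491), to 64.9% of the wild type level. In this comparison 3.19% of all probe sets were called in either direction and 1.47% were called lower, and 19.9% had arrays without overlap. SMZ stood at rank 715 by p-value among the 726 probe sets called, close to the limit of the test. The call ended, with the same direction, without wild type array 1 (adjusted p = 0.0857), 2 (0.166) or 3 (0.113), without ebs array 2 (0.124) or 3 (0.163), and without shl-2 array 1 (0.0661) or 2 (0.0665). It held without ebs array 1 (log2 fold change -0.76, adjusted p = 0.0392) and without shl-2 array 3 (-0.62, adjusted p = 0.0233).

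In shl-2 the SMZ difference from wild type was -0.49 on the log2 scale (SE 0.15, 95% interval -0.81 to -0.17), 71.2% of the wild type signal, and did not pass over all probe sets (limma adjusted p = 0.0880). With the replicate number as a block, the limma adjusted p was 0.0573 in a fit of all arrays and 0.0397 in a fit of the shl-2 and wild type arrays alone, so the call depends on that choice. SMZ arrays of the pair did not overlap, as held for 20.5% of all probe sets, and 5.43% of all probe sets were called. Without shl-2 array 3, the lowest of all 9 arrays for SMZ, the log2 difference was -0.34 (adjusted p = 0.212). Set directly against each other, the mutants differed in SMZ by 0.13 on the log2 scale (shl-2 minus ebs, 95% interval -0.19 to 0.46, limma adjusted p = 0.815). A difference in SMZ between the mutants was thus not detected, and the interval leaves room for one of either sign.

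SNZ, the closest relative of SMZ among the genes measured, had its lowest values in shl-2. Wild type arrays gave SNZ signals of 7.63, 7.38 and 7.45, ebs arrays 7.43, 7.75 and 7.44, and shl-2 arrays 7.18, 7.22 and 6.77. Every shl-2 value was below every ebs and wild type value, while ebs and wild type overlapped. The means were 7.49 ± 0.13 (SD, n = 3) in wild type, 7.54 ± 0.18 in ebs and 7.06 ± 0.25 in shl-2.

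Between shl-2 and wild type the SNZ log2 difference was -0.43 (SE 0.14, 95% interval -0.73 to -0.13), or 74.2% of the wild type signal, with an unadjusted p of 0.0103 that did not pass after adjustment over all probe sets (limma adjusted p = 0.110). Array 3 of shl-2 was the lowest for SNZ, as it was for SMZ, and without it the log2 difference was -0.29 (adjusted p = 0.258). Between shl-2 and ebs the SNZ difference was -0.48 (SE 0.14, 95% interval -0.79 to -0.18, limma adjusted p = 0.187). Only 2.84% of probe sets had a smaller p in that comparison, in which 0.769% were called and 14% had arrays without overlap. In ebs the SNZ log2 difference from wild type was 0.05 (95% interval -0.25 to 0.36, limma adjusted p = 0.893). By level, ebs and wild type were thus neighbours that did not differ beyond their spread, and shl-2 lay lowest without passing the test against either. Whether SMZ and SNZ respond differently from each other to the loss of EBS was not tested.

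ATC showed no separation of genotypes. Its signals were 4.74, 4.63 and 5.06 on the wild type arrays, 4.66, 4.93 and 4.60 on the ebs arrays, and 4.77, 4.94 and 4.61 on the shl-2 arrays. Every genotype spanned nearly the same range, and the highest array was a wild type one. Genotype means were 4.81 ± 0.22 (SD, n = 3), 4.73 ± 0.18 and 4.77 ± 0.17 for wild type, ebs and shl-2. Genotype held 4.26% of the variance of ATC over the 9 arrays, against 71.5% for SMZ, 65.3% for SNZ and 65.8% for AGL18. The same share over all probe sets was not computed, and neither SNZ nor AGL18 passed in any comparison. The log2 differences from wild type were -0.08 in ebs (95% interval -0.38 to 0.22, limma adjusted p = 0.827) and -0.04 in shl-2 (95% interval -0.34 to 0.26, adjusted p = 0.924). The shl-2 minus ebs difference was 0.04 (95% interval -0.26 to 0.34, adjusted p = 0.951). These intervals reach no further than -0.38 and 0.34. They leave out a 2-fold difference in either direction, but not differences within those bounds. The mean of ATC over all arrays, 4.77, lay above 36.5% of probe set means, and above their lower quartile of 3.86.

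AGL18 was the least variable of the 4 within genotypes, and its mutant values lay on opposite sides of the wild type mean. AGL18 signals were 5.99, 6.04 and 5.78 on the wild type arrays, 5.82, 5.80 and 5.83 on the ebs arrays, and 6.12, 6.08 and 5.99 on the shl-2 arrays. The 3 ebs arrays agreed within 0.03 and lay below the 3 shl-2 arrays, while wild type, whose array 3 was the lowest of all 9, overlapped with both. Between the mutants, 14% of all probe sets had arrays without overlap. Means were 5.94 ± 0.14 (SD, n = 3) in wild type, 5.82 ± 0.015 in ebs and 6.06 ± 0.07 in shl-2.

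None of the AGL18 comparisons passed. The log2 difference from wild type was -0.12 in ebs (95% interval -0.30 to 0.06, limma adjusted p = 0.517) and 0.13 in shl-2 (95% interval -0.06 to 0.31, adjusted p = 0.465). Between the mutants the shl-2 minus ebs difference was 0.25 (SE 0.08, 95% interval 0.06 to 0.43), a ratio of 1.19 between linear signals. Its unadjusted p was 0.0135 and its limma adjusted p 0.285, with 4.72% of probe sets at a smaller p.

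**Figure D2:**
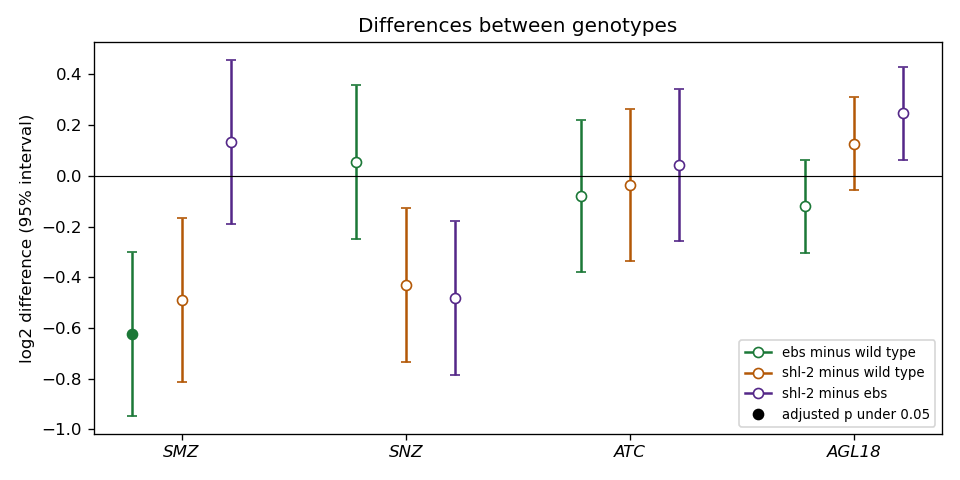
Log2 differences of the 4 repressors (vertical axis) in the 3 comparisons, with 95% intervals from limma over 3 arrays per genotype; a filled point marks an adjusted p under 0.05. SMZ in ebs is the single filled point, at -0.62, and the 3 intervals of ATC all include 0.

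The members were chosen with earlier results of these data known, so the counts below are descriptions and no test of the group. In ebs, 1 of the 4 repressors was called lower than in wild type and none higher, beside 1.47% and 1.72% of all probe sets. In the fit without a replicate block, no member was called by limma in shl-2 against wild type or in shl-2 against ebs. Of all probe sets, 5.43% and 0.769% were called there. In each of these comparisons 2 members had an unadjusted p under 0.05 (SMZ and SNZ, then SNZ and AGL18), as did 18.7% and 10.7% of all probe sets. In ebs, SMZ alone had one, as did 16.9% of all probe sets. The median log2 difference of the members was -0.10 in ebs, -0.23 in shl-2 and 0.09 for shl-2 minus ebs, beside medians over all probe sets of -0.02, -0.03 and -0.003. Both mutants were set against the same wild type arrays, so the first pair of values is not independent. By an exact permutation test over 3 against 3 arrays, the comparisons without overlap (SMZ in each mutant against wild type, SNZ in shl-2 against either, AGL18 between the mutants) had a two-sided p of 0.1, the smallest this design allows. The members did not move as one across the 9 arrays. Pearson's r between pairs ranged from -0.51 for SNZ with AGL18 to 0.33 for SNZ with ATC, as a description over arrays that share their normalization, and r was 0.23 for SMZ with SNZ.

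**Figure D3:**
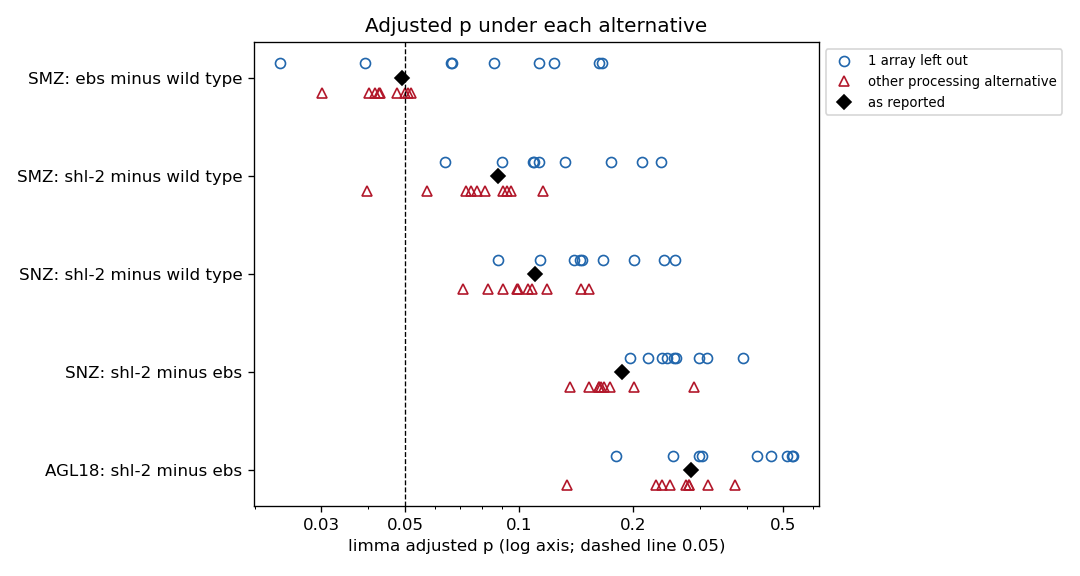
Limma adjusted p (horizontal log axis) of the 5 comparisons of SMZ, SNZ and AGL18 in which the groups had no overlapping arrays, as reported (diamonds), with 1 array left out (circles) and under other processing alternatives (triangles); the dashed line is 0.05. SMZ in ebs lies on the line, with alternatives on both sides from 0.0233 to 0.166, and the other 4 comparisons lie above it apart from 1 alternative of SMZ in shl-2 at 0.0397.

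Other genes of the pathway were taken from 6 lists of flowering genes. Of 51 listed genes, 5 had a named probe set, namely the repressor CDF5 and the activators AGL24, AGL19, AGL42 and FD. The other AP2-type repressors, the other members of the FT and TFL1 family including FT itself, AGL15 and the other MADS-box repressors, and the age pathway genes including those for miR172 were not analysed here. CDF5, a DOF factor that represses CO and FT, gave 4.75, 4.63 and 4.88 on the wild type arrays, 5.26, 5.09 and 5.02 on the ebs arrays, and 4.81, 4.66 and 4.89 on the shl-2 arrays. All ebs arrays lay above the other 6. Arrays without overlap were found for 19.9% of all probe sets between ebs and wild type and for 14% between the mutants. The log2 difference of CDF5 from wild type was 0.37 in ebs (SE 0.10, limma adjusted p = 0.0767) and 0.03 in shl-2 (adjusted p = 0.903). CDF5 and SMZ, both repressors, thus had values of opposite sign in ebs, and only that of SMZ passed.

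The list of activators was likewise chosen with earlier results of these data known, so its counts are descriptions. Among the activators, 1 of 4 was called higher in ebs, as were 1.72% of all probe sets, and none in shl-2. The same gene was called lower in shl-2 than in ebs, as were 0.501% of all probe sets. That gene was AGL24, a MADS-box promoter of flowering, which rose by 2.07 on the log2 scale in ebs (SE 0.25, limma adjusted p = 0.00241), on the same ebs arrays in which SMZ fell by 0.62. AGL24 read 5.88, 6.68 and 5.43 on the ebs arrays, and its wild type mean, 3.93, was dim, near the lower quartile of probe set means (3.86). Its difference between shl-2 and ebs was -1.82 (adjusted p = 0.0101, 0.0511 without shl-2 array 1 and 0.0575 when only these 2 groups were fitted). The activators had a median log2 difference of 0.22 in ebs and of 0.10 in shl-2. AGL19 and AGL42 (wild type means 2.96 and 3.02) lay, like FD, below the lower quartile of probe set means, so these medians rest mostly on dim signals. FD, the partner for which ATC and FT compete, read between 3.30 and 3.60 on all 9 arrays, below the lower quartile of probe set means. Its log2 differences from wild type were 0.11 in ebs (limma adjusted p = 0.604) and 0.04 in shl-2 (adjusted p = 0.883).

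The named genes with the pattern most like each repressor were found by Pearson's r over the 9 arrays among 9404 candidates. For SMZ they were UGT74D1 (r = 0.976), which encodes a glucosyltransferase of auxin metabolism, AT4G22720 (r = 0.973) and AT4G13050 (r = 0.962). UGT74D1 had log2 differences of -0.57 in ebs and -0.50 in shl-2, and AT4G13050 of -0.49 and -0.44. Both genes passed in both mutants (limma adjusted p from 0.0343 to 0.0414), beside 3.19% and 5.43% of all probe sets called in ebs and shl-2. AT4G22720 passed in neither, with -0.27 in ebs (adjusted p = 0.107) and -0.20 in shl-2 (adjusted p = 0.193). Of the fits with 1 array left out in ebs, UGT74D1 passed only without ebs array 1 or shl-2 array 3, and AT4G13050 only without any one of the shl-2 arrays, with adjusted p up to 0.135 and 0.130 when another array was left out. In shl-2 both passed only when an ebs array was left out, with adjusted p up to 0.144 for UGT74D1 and 0.124 for AT4G13050 otherwise. SMZ had 58 candidates with r above 0.9, SNZ had 3, ATC 2 and AGL18 11. The 9 arrays share their normalization and 3 genotypes, and the genes were picked for their likeness, so these r are descriptions. The calls of genes picked this way, here and for the other repressors below, come from the same arrays. They are therefore no independent support for a repressor.

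For SNZ the nearest patterns were those of AT3G59300 (r = 0.952), AT3G26000 (r = 0.909) and AT2G41780 (r = 0.909). AT3G59300 and AT2G41780 were not called in any comparison. AT3G26000 passed in shl-2 against wild type (log2 difference -0.43, limma adjusted p = 0.0284), a call that held without ebs array 2 or 3 or shl-2 array 1 and ended without any other array (highest adjusted p = 0.0972). ATC was matched by AT5G66985 (r = 0.952), the glycosyltransferase gene UGT71C3 (r = 0.911) and TBL30 (r = 0.895), none of which was called in any comparison. The closest matches of AGL18 were AT2G30120 (r = 0.934), AT5G64500 (r = 0.933) and AT1G02816 (r = 0.922). No comparison called AT2G30120 or AT5G64500. AT1G02816 was higher in shl-2 than in ebs by 0.58 on the log2 scale (limma adjusted p = 0.0361) and than in wild type by 0.45 (adjusted p = 0.0323). The first call held only without wild type array 1 or 3 and the second only without wild type array 1 or ebs array 2, with adjusted p up to 0.129 and 0.101 when another array was left out.

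**Figure D4:**
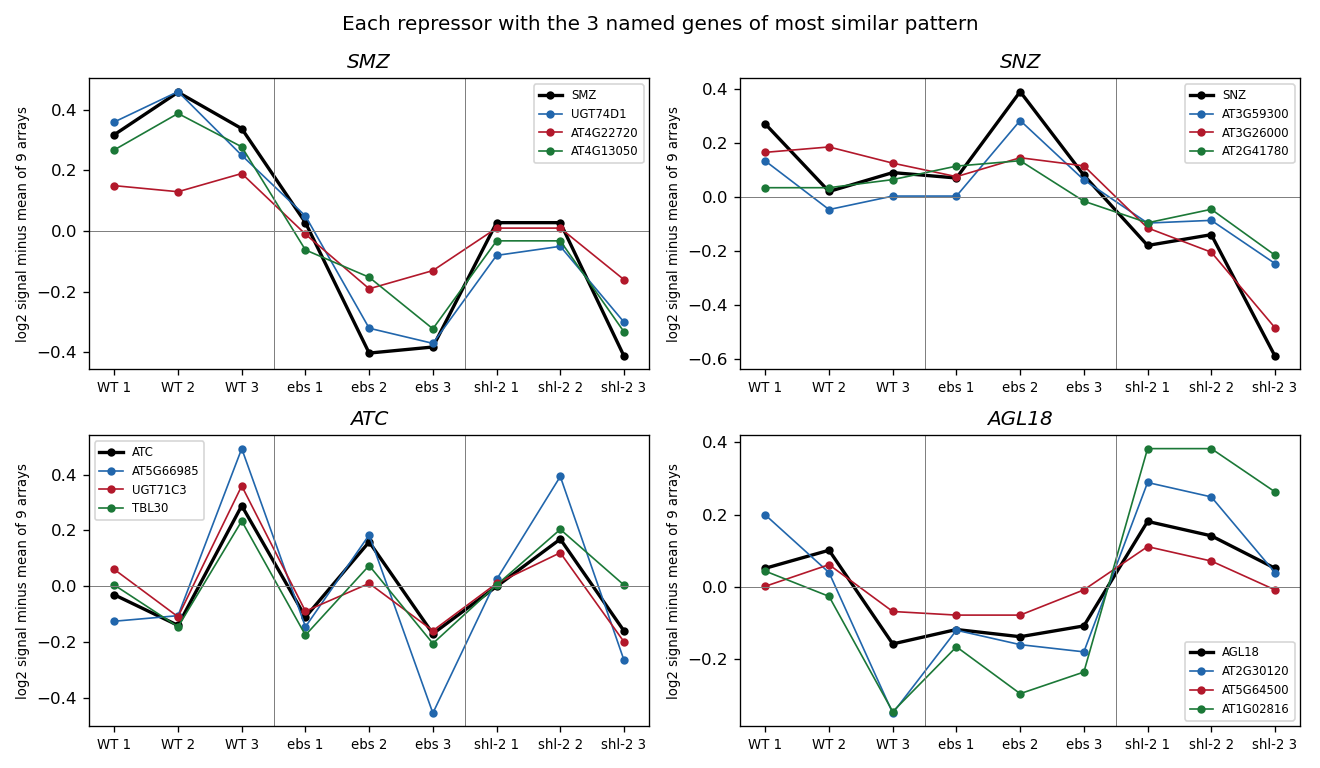
Log2 signal minus the mean of the 9 arrays (vertical axis) for each repressor (black) and the 3 named genes of highest Pearson's r with it (colours), by array; lines join the points of 1 gene and imply no order among replicates. The SMZ group is high on the 3 wild type arrays, the SNZ group is low on the 3 shl-2 arrays, and the ATC group follows single arrays within every genotype.

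Genes near the 4 repressors in the RefSeq gene order of TAIR10.1 were examined as well, a choice made after the values had been seen. The nearest named gene on each side, 1 to 6 genes away, gave 8 neighbours, and nearer genes without a name on the array were skipped. None of the 8 was called by limma in any comparison, with log2 differences from -0.31 to 0.20. At an unadjusted p under 0.05, 1 of the 8 passed in ebs and 2 in shl-2, beside 16.9% and 18.7% of all probe sets. AT3G54980, next to SMZ, had the lowest of these values, -0.31 in ebs (limma adjusted p = 0.0746), and TON1B, on the other side of SMZ, had -0.04 (adjusted p = 0.850).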

How the data were processed

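Total RNA of whole seedlings (500 ng) was biotin-labelled with a 3' kit, per the labels' protocols. The authors deposited a log2 signal for each probe set, to 2 decimals. RMA and the affy package are named as the tools in the submitters' processing notes. RMA corrects background, equalises arrays and summarises probes, so it could not be varied here. Package version and genome build: not given in the sources used here.

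Of 22810 probe sets, 64 controls were left out. Genes were named from the platform annotation, updated to RefSeq names of TAIR10.1, for probe sets with 1 gene (13513, for 13356 genes, the brightest standing for each); 503 named several genes and 8730 were unnamed. Means per genotype were fitted to all 9 arrays with limma 3.58.1 in R 4.3.3 (lmFit, contrasts.fit, eBayes), two-sided, with Benjamini-Hochberg adjustment over 22746 probe sets and calls at an adjusted p under 0.05. SE and 95% intervals are limma's. The script was tested on simulated data with planted effects larger than any difference of the 4 repressors. That test therefore does not show how often differences of their size are called. P-values measure the spread between 3 pools per genotype, and the number of arrays limits precision.

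The rule named the 4 repressors, SHL, the measured genes of the lists and the 3 genes of highest r with each repressor, with a mean at or above the lower quartile. Members and lists were chosen with earlier results of these data known. Same-numbered shl-2 and wild type arrays deviated together from their group means (r = 0.405, 0.212 and 0.171 for numbers 1, 2 and 3), which meets the rule for pairing by the data, while the labels give only the numbers. The reported fit has no block, and blocked values stand beside it where they change a call. Alternatives were a replicate block, median centring, repeated quantile normalization, removal of the dimmest 30%, trended and robust variances, array weights, the compared groups alone, 1 probe set per gene, an adjusted p under 0.01, a 2-fold minimum and each array left out. No sequences were used here.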

Additional observations from a re-analysis of the deposited data

Results flagged for a closer look

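AGL18 was singled out because all 3 ebs arrays lay below the wild type mean, by -0.11 to -0.14 on the log2 scale, and all 3 shl-2 arrays lay above it, by 0.05 to 0.18. The tested difference between the mutants was 0.25 (shl-2 minus ebs) and did not pass (limma adjusted p = 0.285, range over the alternatives 0.134 to 0.531). Wild type array 3, at 5.78, lay below every ebs array.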

How the results depend on the processing

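Of 220 values of the 4 repressors under alternatives, 202 kept direction and side of the threshold, mostly in comparisons uncalled as reported. SMZ in ebs (-0.62, adjusted p = 0.0491), the only call, did so in 8 of 18. It did not pass with a variance trend (-0.62, 0.0501), array weights (-0.57, 0.0519) or only the groups compared (-0.62, 0.0509). With 1 array left out it ranged from -0.76 to -0.55. In shl-2, SMZ passed with a replicate block in the compared groups alone (-0.49, adjusted p = 0.0397), a fit added after the data were seen. The block changed no other call of the repressors (SMZ in ebs -0.62, adjusted p = 0.0301) and gave 898, 1402 and 248 called probe sets in ebs, shl-2 and between the mutants. Same-numbered ebs and wild type arrays (1, 2 and 3) deviated with r of 0.271, 0.46 and -0.108. Between shl-2 and ebs, r was 0.228, 0.156 and -0.285. Pairing in both is thus unclear. Signs that turned were of values near 0. With 1 array left out, SNZ in ebs ranged from -0.052 to 0.125, and was 0 without wild type array 2; ATC ranged from -0.18 to 0.045 in ebs, -0.127 to 0.088 in shl-2 and -0.04 to 0.143 between the mutants, and was 0.059 in shl-2 with array weights. Called probe sets in ebs numbered 726, and 1129 with array weights, 370 with 1 probe set per gene, 212 at an adjusted p under 0.01, 144 with a 2-fold minimum and 264 to 838 with 1 array left out. In shl-2 the 1235 became 568, 530 and 200 with the last 3 rules, and 677 to 1229. Between the mutants the 175 became 364 with array weights, 112 with only the groups compared, 84, 51 and 45 with those rules, and 64 to 190. Stricter thresholds lower counts by construction, and 1 probe set per gene tests fewer (13356); the causes of the other changes were not tested. With the dimmest 30% left out, 782 and 1359 were called in ebs and shl-2. Fitting only the groups compared also ended the calls of UGT74D1 in ebs (adjusted p = 0.0640) and of AT4G13050 (0.0605), AT3G26000 (0.0752) and AT1G02816 (0.0773) in shl-2 against wild type; array weights ended that of UGT74D1 (0.0549) and a variance trend that of AT4G13050 (0.0508) in shl-2. With 3 arrays per genotype, the differences of SMZ and SNZ lay near the limit of the test or short of it, given their spread. Their residual SD within genotypes, 0.21 and 0.19, was above that of 87.8% and 84.8% of probe sets (median 0.12). Size alone did not set that limit. In shl-2 against wild type, AT3G26000 passed at -0.43, the value of SNZ, and AT4G13050 at -0.44, beside -0.49 for SMZ.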
